A study of Mus musculus with 17 samples.

Results

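The mammalian circadian clock genes followed here were Per1, Per2, Per3, Cry1, Cry2, Nr1d1, Nr1d2, Dbp, Tef and Bhlhe41. They were chosen by name, as every probe set to which the platform annotation gave one of these as its only gene symbol, a rule that uses no measured value, although these genes were picked for study with earlier results of the same data known. All 10 genes were found, with 22 probe sets, among 18193 genes and 45037 probe sets in all. Each gene was represented by its probe set of highest mean over all arrays. In mammalian cells the transcription factors CLOCK and BMAL1 switch on the period and cryptochrome genes, whose proteins return to the nucleus and repress the factors that made them. A second loop runs through the nuclear receptors REV-ERB alpha and beta (Nr1d1 and Nr1d2), which repress Bmal1, and output factors such as DBP and TEF pass the rhythm on to D-box elements in other genes. The clock of pancreatic islets is known for its part in timing insulin secretion.

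The samples were pancreatic islets of C57BL/6 mice, of no altered genotype, and culture in F12K with 10% FBS was their sole treatment. Islets of 4 mice were pooled into each of 6 batches, and each batch was split into portions taken at 0, 24 and 48 h after isolation. The 17 arrays comprised 5 at 0 h (batches 1, 2, 3, 4 and 6), 6 at 24 h and 6 at 48 h, and for batch 5 a 0 h array was not analysed here. A replicate is therefore a pool of animals, and the spread between replicates does not show the spread between mice. The sources used here give neither age nor sex of the mice nor the clock time of any harvest. Since harvests lay 24 h apart, no measurement within a day was made and a rhythm could not be tested.

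Levels are the deposited log2 values, on which a difference of 1 is a 2-fold change. Values near 3.52, the median of the whole table, were not separated from background, and levels of different probe sets were not compared with each other. All pairs of arrays correlated at 0.976 to 0.995, with replicate 3 at 0 h (0.987) and replicate 5 at 24 h (0.988) lowest in median correlation with their own time. All 7 measured beta cell markers lay above the median of the table at each time. At 0 h so did 6 of 7 other endocrine, 10 of 11 acinar and 6 of 8 endothelial markers, so this is no test of the tissue label. The mean level of the beta cell markers spanned 10.90 to 11.02 at 0 h, 10.36 to 10.65 at 24 h and 10.65 to 10.74 at 48 h. Of the 7, 5 were lower at 24 h and 4 at 48 h than at 0 h. Markers of other cells moved with time, and over all genes 12.1% passed at 24 h and 11.7% at 48 h. Of 8 endothelial markers, 5 were lower at 24 h and 6 at 48 h than at 0 h, with a mean level of 5.98 to 6.34, 5.19 to 5.44 and 4.61 to 5.10 at the successive times. Of 11 acinar markers, 1 was lower at 24 h and 6 at 48 h, with a mean level of 5.40 to 8.43, 3.89 to 7.15 and 3.51 to 5.38 and with 10, 10 and 7 of them above the median of the table. Of 8 macrophage markers, 5 were lower and 1 higher at 24 h, and 2 were lower and 2 higher at 48 h. Of 7 other endocrine markers 4 were lower at 24 h and 1 at 48 h, of 5 duct markers 1 was higher at both, and of 8 fibroblast and mural cell markers 3 were lower at 24 h, and 1 lower and 2 higher at 48 h. In such bulk samples, fewer cells of a type and less RNA per cell cannot be told apart, and the part of these cell types in the differences between times was not tested.

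The first question was whether the clock genes stood at another level after a day or 2 days of culture than in freshly isolated islets. Cry1 was the single one of the 10 that passed the test (limma, adjusted p under 0.05 over all probe sets), and it was higher at both 24 h and 48 h than at 0 h. At 24 h this was 1 gene higher and 0 lower, where 12.1% of all genes passed and 5.44% were higher. At 48 h it was again 1 higher and 0 lower, where 11.7% of all genes passed and 6.45% were higher. Between 48 h and 24 h, 0 of the 10 passed with limma, beside 0.759% of all genes, and 1 of 10 (Per1) had an unadjusted p under 0.05, beside 14.2% of all genes. At an unadjusted p under 0.05 the counts at 24 h and 48 h were 2 and 1 of 10, beside 25.5% and 26.6% of all genes. A count of 1 in 10 does not stand apart from these backgrounds. The median log2 difference of the 10 genes was 0.02 at 24 h and 0.01 at 48 h against 0 h, and -0.03 between 48 h and 24 h. The medians over all genes were -0.01, -0.02 and -0.00. Over the 22 probe sets, 1 passed at 24 h, 1 at 48 h and 0 between 48 h and 24 h, beside 8.58%, 8.47% and 0.444% of all probe sets.

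The 95% intervals describe the difference in the signal of each gene's representing probe set between these harvests. In each of the 3 comparisons the 95% interval of the log2 difference lay between -1 and 1 for all 10 genes. The bound farthest from 0 was 0.81 at 24 h and 0.83 at 48 h, both for Per3, and 0.65 between 48 h and 24 h, for Cry2. Other probe sets can lie outside these bounds, as the interval of 1458176_at, also of Per3, reached 0.97 at 24 h. For Cry1 and Bhlhe41, whose signal was close to background, the interval describes the signal and not the transcript.

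**Figure D1:**
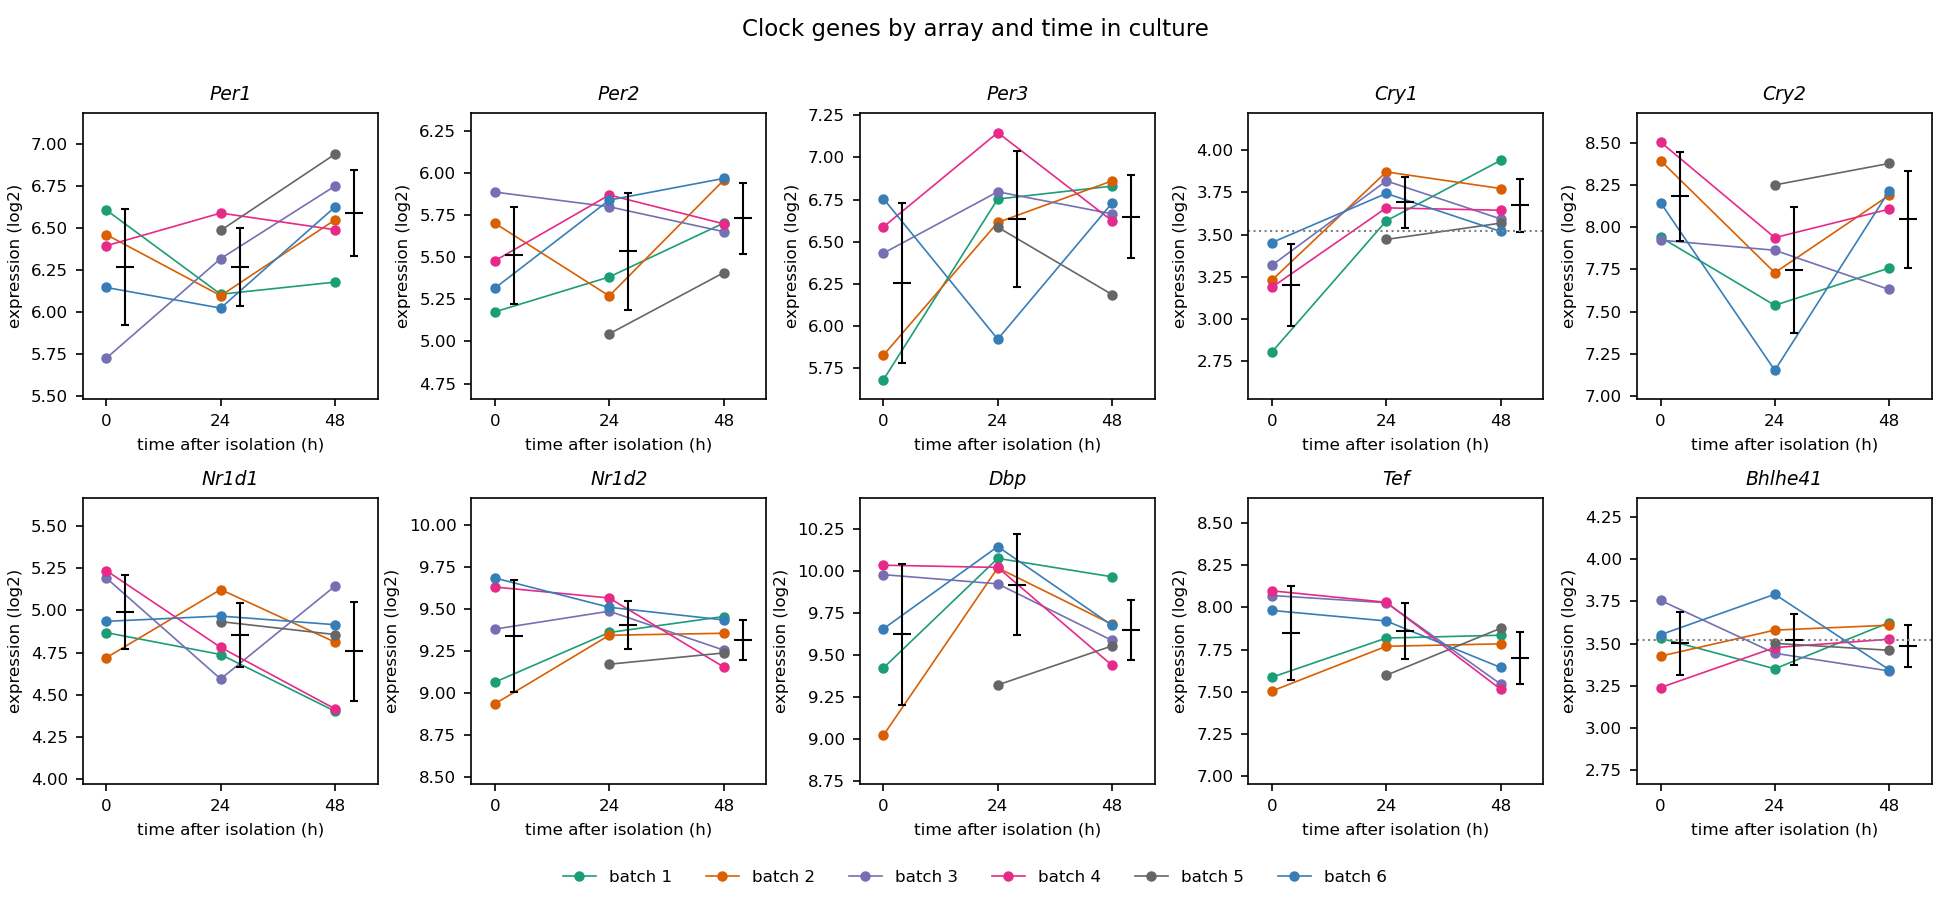
Log2 expression (vertical axis) of the 10 clock genes on each array against time after isolation in hours, with 1 coloured line per batch. Black marks beside the points give the mean and SD of each time (n = 5 at 0 h, n = 6 at 24 and 48 h), the dotted line in the Cry1 and Bhlhe41 panels marks the median of the table (3.52), and each panel spans its own range of levels. The 5 Cry1 points at 0 h lie under all later ones, while the points of the other 9 genes overlap between times (between 48 h and 24 h, 1.57% of all genes did not overlap).

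**Figure D2:**
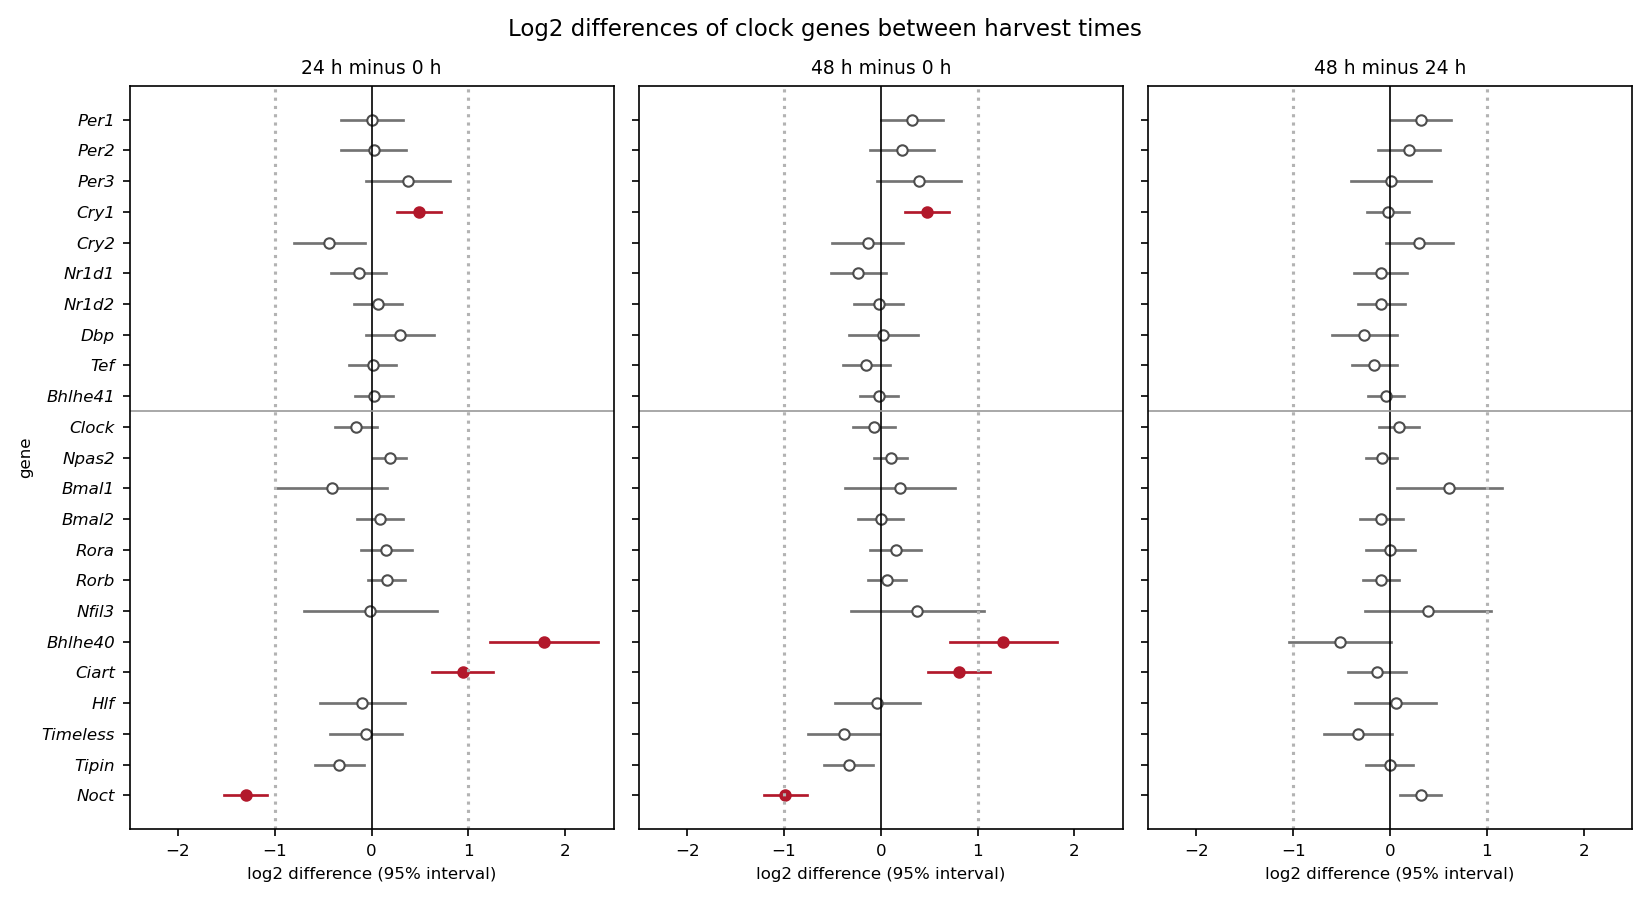
Log2 difference (horizontal axis) with its 95% interval for the 10 clock genes, above the grey line, and 13 further clock genes, below it, in each of the 3 comparisons. Filled red points passed the test (limma, adjusted p under 0.05), open points did not, and dotted lines mark 2-fold differences. Cry1 is filled among the 10 in both comparisons with 0 h, and Bhlhe40, Ciart and Noct are filled among the others.

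The period genes encode the proteins that, bound to cryptochromes, carry the repressive arm of the loop. Per1, the period gene that answers most quickly to hormones and second messengers, read 6.61, 6.46, 5.73, 6.39 and 6.15 at 0 h in batches 1, 2, 3, 4 and 6. The 24 h arrays ranged from 6.02 to 6.59 (median 6.21), and those of 48 h from 6.18 to 6.94 (median 6.59). The arrays of the 3 times overlapped, with batch 3 lowest at 0 h and batch 5 highest at 48 h. Its log2 difference was 0.00 ± 0.15 (SE) at 24 h and 0.32 ± 0.15 at 48 h against 0 h, with an adjusted p of 0.995 and 0.237. Between 48 h and 24 h it was 0.32 ± 0.15 (95% interval 0.01 to 0.62), above 0 in 5 of 6 batches, with an adjusted p of 0.421.

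Before the first of its 2 annotated starts Per1 held a canonical E-box, CACGTG, the element to which CLOCK and BMAL1 bind. Before the second start it held 0. The E-box is shown with 25 bases to each side, on the plus strand of chr11:69098758-69098813 (GRCm38.p6, sequence from RefSeq), with the 6 letters of the element in capitals and its first base 166 bases before the first start.
Per1 E-box: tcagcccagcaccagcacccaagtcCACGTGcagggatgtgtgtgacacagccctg
The array annotation names no build, and these coordinates belong to the RefSeq table alone.

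Per2, a partner of the cryptochromes that is central to the repressive complex, ranged at 0 h between 5.18 and 5.89 (median 5.48), at 24 h between 5.04 and 5.87 (median 5.59) and at 48 h between 5.41 and 5.97 (median 5.70). The spans of the 3 times overlapped widely. Its log2 difference was 0.02 ± 0.16 at 24 h and 0.22 ± 0.16 at 48 h against 0 h, and 0.20 ± 0.15 between 48 h and 24 h, with adjusted p of 0.963, 0.484 and 0.669. Its other 2 probe sets averaged 3.14 and 3.84, close to the median of the table, and did not track the first closely, with a correlation of their deviations from the mean of each time of -0.317, opposite in sign, and 0.270 over the 17 arrays.

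Per3, which is dispensable for the core loop but cycles strongly in many tissues, showed the widest spread of the 10 between arrays of the same time. At 0 h it read 5.68, 5.83, 6.43, 6.59 and 6.76 in batches 1, 2, 3, 4 and 6. At 24 h it read 6.75, 6.61, 6.80, 7.15, 6.59 and 5.92 in batches 1 to 6, and at 48 h 6.83, 6.86, 6.67, 6.62, 6.19 and 6.73. Batches 1 and 2 were low at 0 h, and batch 6 passed from highest at 0 h to lowest at 24 h. The mean of the 5 arrays at 0 h was 6.26 ± 0.48 (SD), and the 6 arrays of each later time gave 6.64 ± 0.40 and 6.65 ± 0.24. The log2 difference from 0 h was 0.38 ± 0.21 at 24 h (adjusted p = 0.338) and 0.39 ± 0.21 at 48 h (adjusted p = 0.292), above 0 in 4 of 5 batches each time, and no call was made. Of its 6 probe sets, 0 passed in any comparison with limma. The one nearest to a call, 1458176_at (unadjusted p = 0.0116 at 24 h and 0.0173 at 48 h), had a log2 difference of 0.56 ± 0.20 at 24 h (adjusted p = 0.0993) and 0.52 ± 0.20 at 48 h (adjusted p = 0.124), with a mean level of 3.90.

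Per3 was the only one of the 9 genes with a promoter entry to hold a D-box, the element read by DBP, TEF and HLF, and it held 2 copies. The transcripts of these factors correlated with Per3 in their deviations on the 0 h arrays, at 0.741 (Dbp), 0.910 (Tef) and 0.819 (Hlf). At 24 h Dbp gave -0.103, and at 48 h Tef gave -0.222 and Hlf -0.114. Each was above 0 at the other later time, and over the 17 arrays Dbp, Tef and Hlf gave 0.394, 0.490 and 0.457. On the 0 h arrays Nr1d2 and Ciart, which encode none of these factors, correlated with Per3 at 0.958 and 0.834. The part of the D-boxes in these correlations was not tested. Both copies are shown. They lie on the minus strand at chr4:151044838-151044895 and chr4:151044791-151044848 (GRCm38.p6, RefSeq), beginning 205 and 158 bases before the start, with the 8 letters of the element in capitals.
Per3 D-box, distal: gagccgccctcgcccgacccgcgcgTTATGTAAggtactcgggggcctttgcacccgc
Per3 D-box, proximal: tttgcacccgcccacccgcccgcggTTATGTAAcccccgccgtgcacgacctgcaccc
The letters searched were TTATGTAA and TTACGTAA on both strands, within 250 bases before each annotated start. Of all 32851 promoters in the table, 0.931% held 1 copy or more and 0.0213% held 2 or more.

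Cry1 and Cry2 encode the cryptochromes, the partners of the period proteins and the stronger repressors of CLOCK and BMAL1. Cry1 read 2.80, 3.23, 3.32, 3.19 and 3.45 at 0 h in batches 1, 2, 3, 4 and 6. At 24 h it read 3.58, 3.87, 3.82, 3.66, 3.47 and 3.74 in batches 1 to 6, and at 48 h 3.94, 3.77, 3.59, 3.64, 3.57 and 3.52. Every 0 h array lay below every later one, without overlap, as was so for 8.78% of all genes between 0 h and 24 h (3.92% with the later arrays higher) and 9.17% between 0 h and 48 h (5.17% with the later arrays higher). From a mean of 3.20 ± 0.24 (SD, n = 5) it rose to 3.69 ± 0.15 (n = 6) by 24 h, and 48 h gave 3.67 ± 0.16 (n = 6). Limma gave a log2 difference of 0.49 ± 0.11 at 24 h (95% interval 0.27 to 0.72, adjusted p = 0.00563) and 0.47 ± 0.11 at 48 h (0.25 to 0.70, adjusted p = 0.00807). It was above 0 in 5 of 5 batches, by 0.29 to 0.78 at 24 h and by 0.07 to 1.14 at 48 h. Between 48 h and 24 h it was -0.02 ± 0.10 (adjusted p = 0.972). All 5 arrays at 0 h, and 1 array at each later time, were under the median of the table, so the rise is one of a signal close to background and its size is no estimate of the fold change of the transcript. Cry1 had no second probe set against which to set it. Over the alternative settings the adjusted p of Cry1 stayed between 0.00204 and 0.0155 at 24 h, and between 0.00461 and 0.0214 at 48 h.

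The promoter of Cry1 held an E-box 60 bases before the start and, 19 bases upstream of it, an E'-box, a variant of the element that differs in its last letter. The stretch with both is shown on the minus strand of chr10:85185084-85185139 for the E-box and chr10:85185103-85185158 for the E'-box (GRCm38.p6, RefSeq), the element of each line in capitals (the E'-box reads CACGTT on the opposite strand).
Cry1 E-box: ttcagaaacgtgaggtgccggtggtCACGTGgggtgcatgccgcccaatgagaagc
Cry1 E'-box: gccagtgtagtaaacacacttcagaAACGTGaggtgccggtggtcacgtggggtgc

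Cry2 read 7.94, 8.40, 7.92, 8.51 and 8.15 at 0 h in batches 1, 2, 3, 4 and 6. At 24 h it read 7.54, 7.73, 7.86, 7.94, 8.25 and 7.15 in batches 1 to 6, and at 48 h 7.76, 8.19, 7.63, 8.11, 8.38 and 8.22. The times overlapped across batches, but within each of the 5 complete batches the 24 h array was below the 0 h array. The log2 difference at 24 h was -0.44 ± 0.17 (95% interval -0.80 to -0.07, adjusted p = 0.149), with within-batch differences of -0.996 to -0.06. With the batch as a fixed block it was -0.52 ± 0.13 with an adjusted p of 0.0261, a call of lower, but with the batch as a random block it was -0.44 ± 0.17 with an adjusted p of 0.137. Without batch 5, which has no 0 h array here and was the highest at 24 h, it was -0.54 ± 0.16 (adjusted p = 0.0489). Without the 2 arrays that correlated least with their own time it was -0.60 ± 0.17 (adjusted p = 0.0410). At 48 h the difference from 0 h was -0.14 ± 0.17 (adjusted p = 0.729), and between 48 h and 24 h it was 0.30 ± 0.17 (adjusted p = 0.509), above 0 in 5 of 6 batches. Within a time, Cry2 deviated against the mean of the macrophage markers (r = -0.697 over 17 arrays), of the other endocrine markers (r = -0.674) and of the beta cell markers (r = -0.612). Their part in the Cry2 values was not tested.

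Nr1d1 and Nr1d2 encode REV-ERB alpha and beta, haem-binding receptors that compete with the ROR receptors at the Bmal1 promoter. Nr1d1 ranged at 0 h between 4.72 and 5.24 (median 4.94), at 24 h between 4.59 and 5.12 (median 4.86) and at 48 h between 4.40 and 5.14 (median 4.83). Its log2 difference was -0.13 ± 0.13 at 24 h and -0.23 ± 0.13 at 48 h against 0 h, with adjusted p of 0.671 and 0.350, and the times overlapped. Nr1d2 read 9.07, 8.94, 9.38, 9.63 and 9.68 at 0 h in batches 1, 2, 3, 4 and 6, at 24 h between 9.17 and 9.57 (median 9.42), and at 48 h between 9.16 and 9.45 (median 9.31). The lowest and the highest of all its 17 values were both at 0 h, and the later arrays fell between them. Its log2 difference was 0.07 ± 0.12 at 24 h (95% interval -0.18 to 0.32, adjusted p = 0.837) and -0.02 ± 0.12 at 48 h (-0.28 to 0.23, adjusted p = 0.947).

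Dbp and Tef encode transcription factors of the PAR bZIP family, which bind D-boxes, and Dbp is a classical direct target of CLOCK and BMAL1. Dbp read 9.42, 9.02, 9.98, 10.03 and 9.65 at 0 h in batches 1, 2, 3, 4 and 6. At 24 h it read 10.07, 10.02, 9.92, 10.02, 9.32 and 10.14 in batches 1 to 6, and at 48 h 9.96, 9.68, 9.59, 9.44, 9.55 and 9.68. Batch 5 lay far below the other batches at 24 h, and batches 1 and 2 were lowest at 0 h. The mean of the 5 arrays at 0 h was 9.62 ± 0.42 (SD), and the 6 arrays of each later time gave 9.92 ± 0.30 and 9.65 ± 0.18. The log2 difference was 0.29 ± 0.17 at 24 h (95% interval -0.06 to 0.65, adjusted p = 0.370), 0.03 ± 0.17 at 48 h (adjusted p = 0.955) and -0.27 ± 0.16 between 48 h and 24 h (adjusted p = 0.556). Replicate 3 at 0 h and replicate 5 at 24 h, the 2 arrays that correlated least with their own time, were the second highest and the lowest of their times for Dbp. Without both, the difference at 24 h was 0.50 ± 0.15 with an adjusted p of 0.0488. Its second probe set, 1418174_at, followed it closely, with a correlation of deviations of 0.970 over the 17 arrays, and had log2 differences of 0.25 and 0.08 at 24 h and 48 h against 0 h.

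Tef read 7.59, 7.50, 8.07, 8.10 and 7.98 at 0 h in batches 1, 2, 3, 4 and 6. At 24 h it read 7.82, 7.77, 8.03, 8.03, 7.60 and 7.92 in batches 1 to 6, and at 48 h 7.84, 7.78, 7.55, 7.51, 7.88 and 7.64. Batches 1 and 2 were low at 0 h, as for Dbp, and batch 5 was low at 24 h. The log2 difference was 0.01 ± 0.12 at 24 h (95% interval -0.23 to 0.26, adjusted p = 0.973) and -0.15 ± 0.12 at 48 h (-0.39 to 0.10, adjusted p = 0.53). Both annotated starts of Tef had an E-box upstream, on the plus strand at chr15:81802521-81802576, 127 bases before the start, and at chr15:81811251-81811306, 138 bases before it (GRCm38.p6, RefSeq). They are shown with the element in capitals. Of the clock genes that varied most closely with Tef, Nr1d2 and Dbp held 0 E-boxes in the windows searched, and Ciart held 3. Whether the element has a part in this likeness was not tested.
Tef start 1, E-box: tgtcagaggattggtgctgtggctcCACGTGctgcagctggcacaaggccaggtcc
Tef start 2, E-box: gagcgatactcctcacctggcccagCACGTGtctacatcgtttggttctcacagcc

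Bhlhe41 encodes DEC2, a repressor that competes with CLOCK and BMAL1 for E-boxes. Its signal lay at 0 h between 3.24 and 3.76, at 24 h between 3.35 and 3.79 and at 48 h between 3.34 and 3.62, around the median of the table, with 2, 4 and 3 arrays under it. The log2 difference was 0.02 ± 0.09 at 24 h and -0.02 ± 0.09 at 48 h against 0 h, and no change was detectable in a signal at this level.

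Across the 11 annotated starts of the 9 genes with a promoter entry, 5 had CACGTG within the 250 bases before the start, in 4 genes (Per1, Tef, Cry1 and Bhlhe41), where 6.02% of all promoters did. The E'-box, CACGTT, was found before 3 of the 11 (Nr1d1, Cry1 and Cry2; 3.85% of all promoters). The nuclear receptor half-site AGGTCA was found before 2 (Per1 and Nr1d2; 14.02%), and the cAMP response element TGACGTCA before 0 (1.55%). All were searched on both strands, and the matches describe these windows alone. Per2 had no entry in the table.

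The other genes of the loop were taken from lists of core activators, ROR and NFIL3 genes, and further repressors and PAR bZIP genes. Of these 12 measured genes, Bhlhe40 and Ciart were higher at 24 h and at 48 h than at 0 h, and 0 were lower. Over all genes, 12.1% passed at 24 h (5.44% higher) and 11.7% at 48 h (6.45% higher). Bhlhe40 encodes DEC1, the close relative of DEC2 that also answers to hypoxia, serum and cAMP. It read 5.98, 5.13, 5.90, 6.04 and 6.48 at 0 h in batches 1, 2, 3, 4 and 6, between 6.63 and 8.51 at 24 h (median 7.68) and between 6.95 and 7.58 at 48 h (median 7.14). Every later array lay above every 0 h array, as was so for 3.92% of all genes at 24 h and 5.17% at 48 h. Batch 5 was the lowest at 24 h. The log2 difference was 1.78 ± 0.26 (3.44-fold, adjusted p = 0.000161) at 24 h and 1.27 ± 0.26 (2.41-fold, adjusted p = 0.00434) at 48 h, above 0 in 5 of 5 batches. Ciart encodes CHRONO, a repressor of CLOCK and BMAL1. It read 4.65, 4.47, 4.91, 4.76 and 4.97 at 0 h, between 5.20 and 5.98 at 24 h (median 5.84) and between 5.27 and 5.88 at 48 h (median 5.54), again without overlap. The log2 difference was 0.94 ± 0.15 (1.92-fold, adjusted p = 0.000358) at 24 h and 0.81 ± 0.15 (1.75-fold, adjusted p = 0.0018) at 48 h. The promoter of Ciart held 3 E-boxes, where 0.429% of all promoters held 2 or more. The middle one is shown on the minus strand of chr3:95882256-95882311 (GRCm38.p6, RefSeq), beginning 58 bases before the start.
Ciart E-box: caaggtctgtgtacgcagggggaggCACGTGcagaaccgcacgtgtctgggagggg

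**Figure D3:**
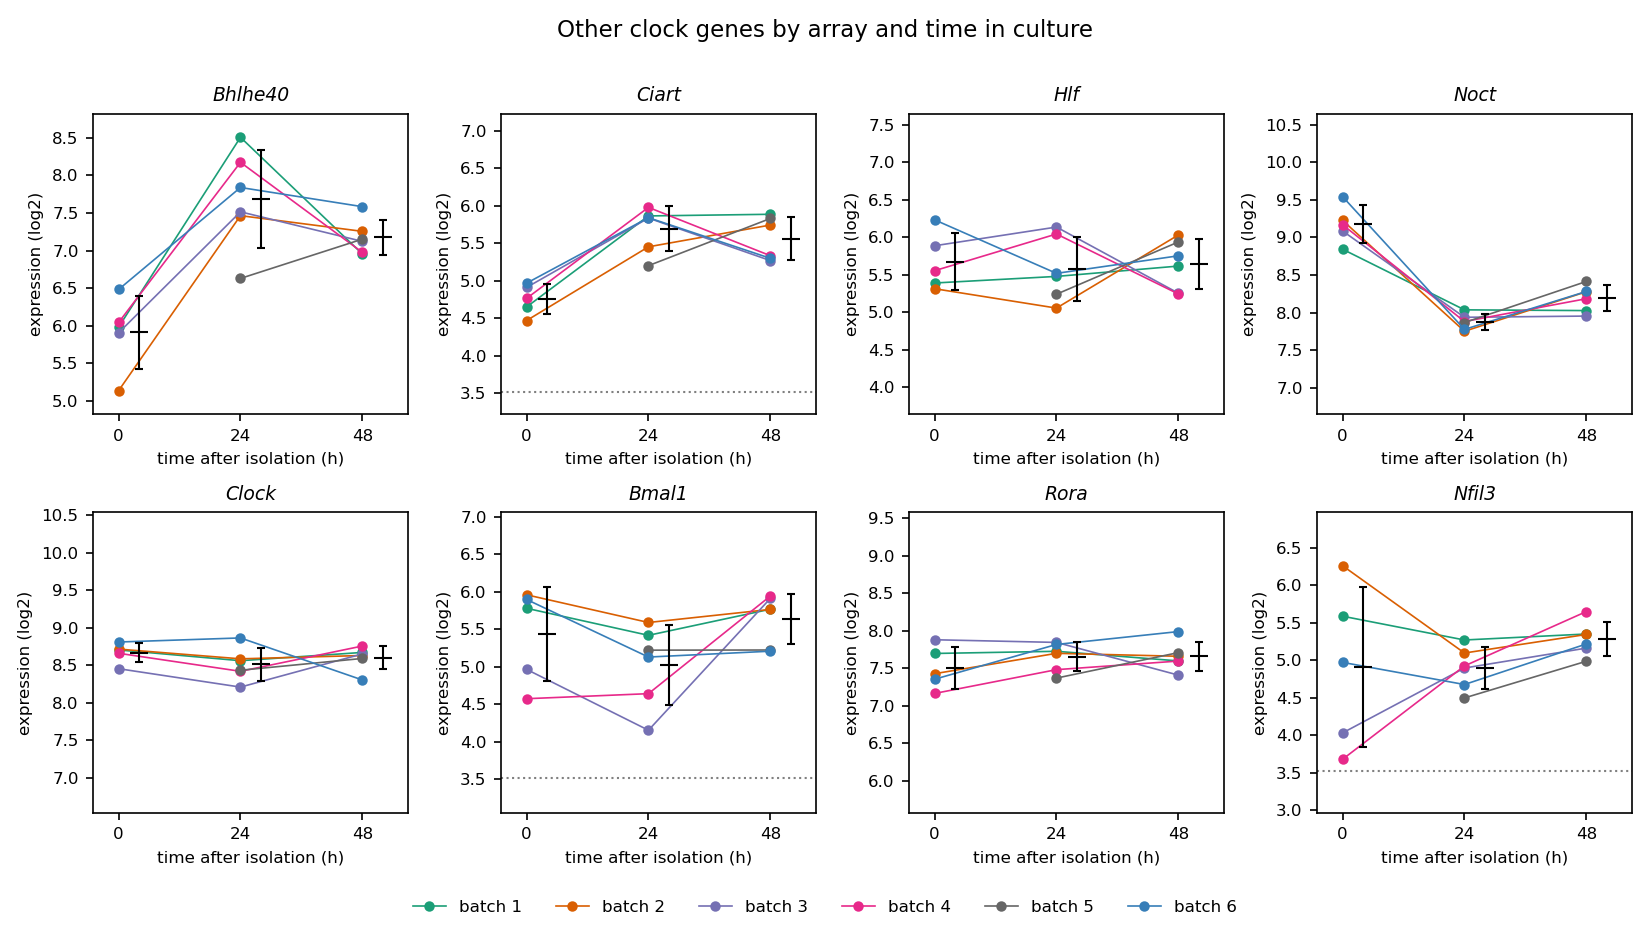
Log2 expression (vertical axis) of 8 further clock genes on each array against time after isolation in hours, with 1 coloured line per batch. Black marks give the mean and SD of each time (n = 5 at 0 h, n = 6 at 24 and 48 h), the dotted line marks the median of the table where it falls in range, and each panel spans its own range of levels. Bhlhe40 and Ciart lie higher and Noct lower on every array at 24 and 48 h than at 0 h. Of all genes, 8.78% did not overlap with 0 h at 24 h and 9.17% at 48 h. Bmal1 and Nfil3 are spread most widely at 0 h.

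Of the 4 core activators, 0 passed in any comparison with limma at the probe set of highest mean. At 24 h, at 48 h and between 48 h and 24 h, 1, 0 and 1 of them had an unadjusted p under 0.05. The shares of all genes were 25.5%, 26.6% and 14.2%. Clock, which encodes the DNA-binding histone acetyltransferase partner of BMAL1, had a log2 difference of -0.16 ± 0.10 at 24 h and -0.07 ± 0.10 at 48 h. Its probe sets disagreed, as 1435775_at was lower, with -0.53 ± 0.09 at 24 h (adjusted p = 0.000734) and -0.39 ± 0.09 at 48 h (adjusted p = 0.0106), without overlap of arrays. Bmal1 (annotated as Arntl) read 5.78, 5.96, 4.96, 4.57 and 5.89 at 0 h in batches 1, 2, 3, 4 and 6, between 4.15 and 5.59 at 24 h and between 5.21 and 5.94 at 48 h. Batches 3 and 4 were the lowest at both 0 h and 24 h. The log2 difference was -0.41 ± 0.27 at 24 h (adjusted p = 0.463), 0.20 ± 0.27 at 48 h (adjusted p = 0.746) and 0.61 ± 0.26 between 48 h and 24 h (adjusted p = 0.369), the last above 0 in 6 of 6 batches. Npas2 and Bmal2 (annotated as Arntl2), which can stand in for Clock and Bmal1, averaged 2.79 and 3.22, under the median of the table.

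Of the ROR and NFIL3 genes, 0 of 3 measured passed in any comparison with limma, nor did any have an unadjusted p under 0.05. Rora, an activator of Bmal1, had log2 differences of 0.15 ± 0.13 and 0.16 ± 0.13 at 24 h and 48 h, and Rorb averaged 2.74, under the median of the table. Nfil3, which binds D-boxes as a repressor and so opposes DBP and TEF, read 5.59, 6.26, 4.03, 3.68 and 4.97 at 0 h in batches 1, 2, 3, 4 and 6. It was high in batches 1 and 2, where Dbp and Tef were low. At 24 h it lay between 4.50 and 5.27, and at 48 h between 4.99 and 5.65. Hlf, the third PAR bZIP gene, had log2 differences of -0.10 ± 0.21 and -0.04 ± 0.21. Timeless and Tipin, which encode partners at the replication fork with a link to the clock, had log2 differences of -0.06 ± 0.18 and -0.33 ± 0.12 at 24 h, and of -0.38 ± 0.18 and -0.33 ± 0.12 at 48 h, with adjusted p between 0.106 and 0.914. Tipin at 48 h was -0.39 with an adjusted p of 0.0341 when quantile normalization was repeated.

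Among 9 measured outputs of the clock, 2 were higher and 2 lower at 24 h, and 0 were higher and 2 lower at 48 h. Over all genes, 12.1% passed at 24 h and 11.7% at 48 h. The median log2 difference of the outputs was 0.13 and -0.10. Noct, which encodes the rhythmic phosphatase nocturnin, had a mean of 9.17 ± 0.25 (SD) over the 5 arrays at 0 h, and of 7.87 ± 0.11 and 8.19 ± 0.17 over the 6 at 24 h and the 6 at 48 h. It was lower in 5 of 5 batches by a log2 difference of -1.30 ± 0.11 (adjusted p = 2.18e-07) at 24 h and -0.99 ± 0.11 (adjusted p = 6.89e-06) at 48 h. Lonrf3, a RING finger gene, was higher by 0.74 ± 0.19 at 24 h (adjusted p = 0.0163, and 0.0524 without the 2 arrays that correlated least with their time). Nampt, the rate-limiting enzyme of NAD salvage, was higher by 0.38 ± 0.11 at 24 h (adjusted p = 0.0351). That call was lost when 0 h replicate 2, 3 or 4 or 24 h replicate 1, 2 or 4 was left out, with adjusted p up to 0.0955, and it was lost (0.0820) when only the arrays of those times were fitted. At 48 h Nampt differed by 0.30 ± 0.11 (adjusted p = 0.112), and with the batch as a block by 0.35 ± 0.09 (adjusted p = 0.0349). The 48 h difference also passed with the mean of its probe sets (adjusted p = 0.00731) and with those times fitted alone (0.0438). Another of its probe sets, 1417190_at, was higher by 0.70 at 24 h (adjusted p = 0.00065) and by 0.61 at 48 h (adjusted p = 0.00266). Marveld1 was lower by -0.50 ± 0.12 at 24 h (adjusted p = 0.00868), but 1433538_at, another of its probe sets, gave 0.02 (adjusted p = 0.949 when _x_at and _s_at probe sets were left out). Hsd11b1, which regenerates active glucocorticoid, was lower by -0.40 ± 0.10 at 48 h (adjusted p = 0.0217). That call was lost without 0 h replicate 1 or 48 h replicate 2, with adjusted p of 0.0629 and 0.0512, with the arrays of those times alone (0.0516) and without the 2 arrays least correlated with their time (0.0502). Among 7 measured clock kinases and ubiquitin ligase subunits, 0 were higher and 1 lower at 24 h, beside 12.1% of all genes that passed. At 48 h 0 passed with limma, beside 11.7%, and 1 had an unadjusted p under 0.05, beside 26.6%. The one lower at 24 h was Btrc, a subunit that helps mark period proteins for decay, at -0.51 ± 0.13 (adjusted p = 0.0180). With the mean of its probe sets it was -0.13 (adjusted p = 0.243), and with the one of largest SD -0.07 (adjusted p = 0.889). Csnk1d, a casein kinase that phosphorylates period proteins, had probe sets that disagreed. The one of highest mean differed by 0.06 at 24 h (adjusted p = 0.698), while 1418889_a_at was higher by 0.62 at 24 h (adjusted p = 0.00116) and 0.54 at 48 h (adjusted p = 0.0044), and 1456727_a_at by 0.39 at 24 h (adjusted p = 0.00523).

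Hormones, cAMP and temperature can all reset clock genes, and genes that answer to these cues were counted beside them. Of 8 glucocorticoid-responsive genes, 1 was higher at 24 h, and 1 was higher and 1 lower at 48 h. Over all genes, 12.1% passed at 24 h (5.44% higher) and 11.7% at 48 h (6.45% higher). Ddit4, a stress-induced inhibitor of mTOR signalling, was higher by 1.45 ± 0.33 at 24 h (adjusted p = 0.00799). Klf9, a Kruppel-like factor, was lower by -0.41 ± 0.09 at 48 h (adjusted p = 0.00871), and by -0.21 (adjusted p = 0.0793) with the mean of its probe sets or -0.36 (adjusted p = 0.161) with the one of largest SD. Sgk1, a kinase induced by steroids, was higher by 0.58 ± 0.16 at 48 h (adjusted p = 0.0304), a call lost when any of 7 single arrays was left out (0 h replicates 2, 4 and 6 and 48 h replicates 1 to 4, adjusted p up to 0.0888) or only the arrays of those times were fitted (0.0722). Of 10 genes induced through CREB or as immediate early genes, 1 was higher at 24 h and 3 at 48 h, and 0 were lower. An unadjusted p under 0.05 was found for 4 and 7 of them, beside 25.5% and 26.6% of all genes. The immediate early genes Fos, Egr1 and Nr4a1 had log2 differences of -1.41 ± 0.49, -1.14 ± 0.52 and -0.77 ± 0.27 at 24 h (adjusted p of 0.0892, 0.225 and 0.0896). At 48 h they had -1.13 ± 0.49, -1.55 ± 0.52 and -0.82 ± 0.27 (adjusted p of 0.184, 0.0735 and 0.067). For Nr4a1 the arrays of 48 h all lay under those of 0 h (9.17% of all genes did not overlap). Atf3, a stress-induced bZIP factor, was higher by 0.64 ± 0.15 at 24 h (adjusted p = 0.0084) and by 0.48 ± 0.15 at 48 h (adjusted p = 0.0499, 0.0503 with the batch as a block, 0.0592 without batch 5 and 0.0523 without _x_at and _s_at probe sets). The 48 h call of Atf3 was also lost when any of 13 of the 17 arrays was left out, with adjusted p up to 0.127. Nr4a2, an orphan nuclear receptor, was higher by 1.04 ± 0.21 at 48 h (adjusted p = 0.00347, 0.0553 with the mean of its probe sets and 0.193 with the one of largest SD), and Crem, a cAMP-responsive modulator, by 0.79 ± 0.15 (adjusted p = 0.00241). Between 48 h and 24 h, 0 genes of any of these lists passed with limma, beside 0.759% of all genes. An unadjusted p under 0.05 was found for 1 glucocorticoid-responsive and 3 CREB or immediate early genes, beside 14.2% of all genes. Cirbp, the measured cold-inducible RNA-binding gene, differed by 0.35 ± 0.17 at 24 h (adjusted p = 0.258).

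The second question was how the clock genes varied between arrays of the same time. Each batch has 1 array per time at most, so batch, portion and array cannot be told apart in this spread. Over all probe sets, deviations on arrays of 1 batch had a median correlation of 0.00545. Their spread differed from gene to gene, since the SD within a time placed Per3 at percentile 96.6 of all genes, Cry2 at 92.9, Dbp at 91.8, Per2 at 89.8, Per1 at 88.3 and Nr1d1 at 80.9. Nr1d2 stood at 71.0, Tef at 68.0, Cry1 at 58.4 and Bhlhe41 at 40.7. Each gene's deviation from the mean of its time was taken on every array, and deviations were compared between genes over the 17 arrays. The points share batches, arrays and the means subtracted, and the correlations are descriptions. Over the 45 pairs of the 10 genes the median correlation was 0.151, with 7 pairs above 0.5 and 3 below -0.5.

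Dbp, Tef and Nr1d2 varied together most closely. Tef and Nr1d2 correlated at 0.832 (0.904, 0.964 and 0.448 within 0, 24 and 48 h), Dbp and Tef at 0.801 (0.947, 0.687 and 0.555), and Dbp and Nr1d2 at 0.782 (0.797, 0.770 and 0.883). Without the 2 arrays farthest from the median of the first gene, these values were 0.733, 0.665 and 0.627. Per3 correlated with Nr1d2 at 0.642 over all arrays, at 0.958 within 0 h, 0.0957 within 24 h and 0.565 within 48 h. Without the 2 arrays farthest from the median of Per3 the value over all arrays rose to 0.824. The low value within 24 h includes the array of batch 6, where Per3 deviated by -0.72 and Nr1d2 by 0.10. The 0 h arrays of batches 1 and 2 were low for all 4 genes, and the 24 h array of batch 5 was low for Dbp, Tef and Nr1d2. The 3 pairs of Dbp, Tef and Nr1d2 did not rest on any single array, since the lowest value with 1 array left out was 0.780 for Tef and Nr1d2, 0.737 for Dbp and Tef and 0.695 for Dbp and Nr1d2. These 4 genes were singled out after their values were seen. For Tef, Nr1d2 and Per3 the pattern rests on 1 probe set each. Their other probe sets, with mean levels of 2.79 to 4.30, did not track it closely. The correlation of deviations with the first was 0.223 and 0.213 for Tef, -0.0295 for Nr1d2 and 0.000795 to 0.366 for Per3.

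**Figure D4:**
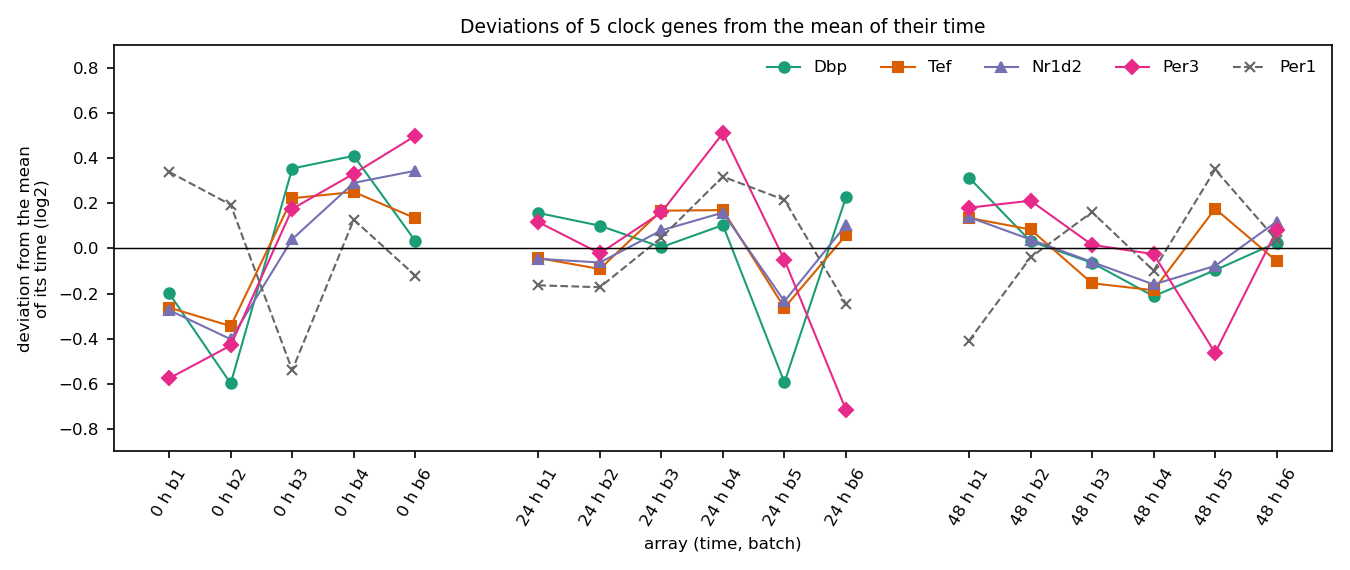
Deviation of 5 clock genes from the mean of their time (vertical axis, log2) on each of the 17 arrays, labelled by time and batch (horizontal axis). Lines only join the points of 1 gene within a time. Dbp, Tef, Nr1d2 and Per3 lie below 0 together on the 0 h arrays of batches 1 and 2, while Per1 lies above 0 on both.

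Per1 deviated in the opposite direction to several of the others. Its deviations correlated with those of Dbp at -0.569 (-0.569, -0.558 and -0.666 within 0, 24 and 48 h) and with those of Cry1 at -0.658 (-0.671, -0.447 and -0.823), and without the 2 farthest arrays these became -0.408 and -0.591. With Per2 the correlation was -0.326, and with Cry2 it was 0.544. Per1 against Bhlhe41 gave -0.594, and -0.373 without the 2 farthest arrays. The signals of Cry1 and Bhlhe41 were close to background, and Per1 had no second probe set. Among outputs, Usp2, a deubiquitinase gene, correlated with Per1 at -0.804.

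Pairs with the other clock genes were computed in the same way. Tef and Ciart correlated at 0.812 (0.844, 0.895 and 0.942 within 0, 24 and 48 h) and Tef and Hlf at 0.741 (0.676, 0.860 and 0.812). Tef and Bmal1 correlated at -0.681, with -0.750, -0.727 and -0.466 within the 3 times. Each of those 3 pairs kept its sign at all 3 times. Tef and Nfil3 did not, with -0.945 at 0 h, 0.268 at 24 h and -0.487 at 48 h, nor did Dbp and Nfil3, with -0.987, 0.643 and -0.100. Dbp and Tipin correlated at 0.688 (0.391 without the 2 farthest arrays), and Nr1d1 and Npas2, the latter at background level, at -0.690. Dbp and Bhlhe40 correlated at 0.638, but at -0.0411 within 48 h and at 0.112 without the 2 farthest arrays.

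**Figure D5:**
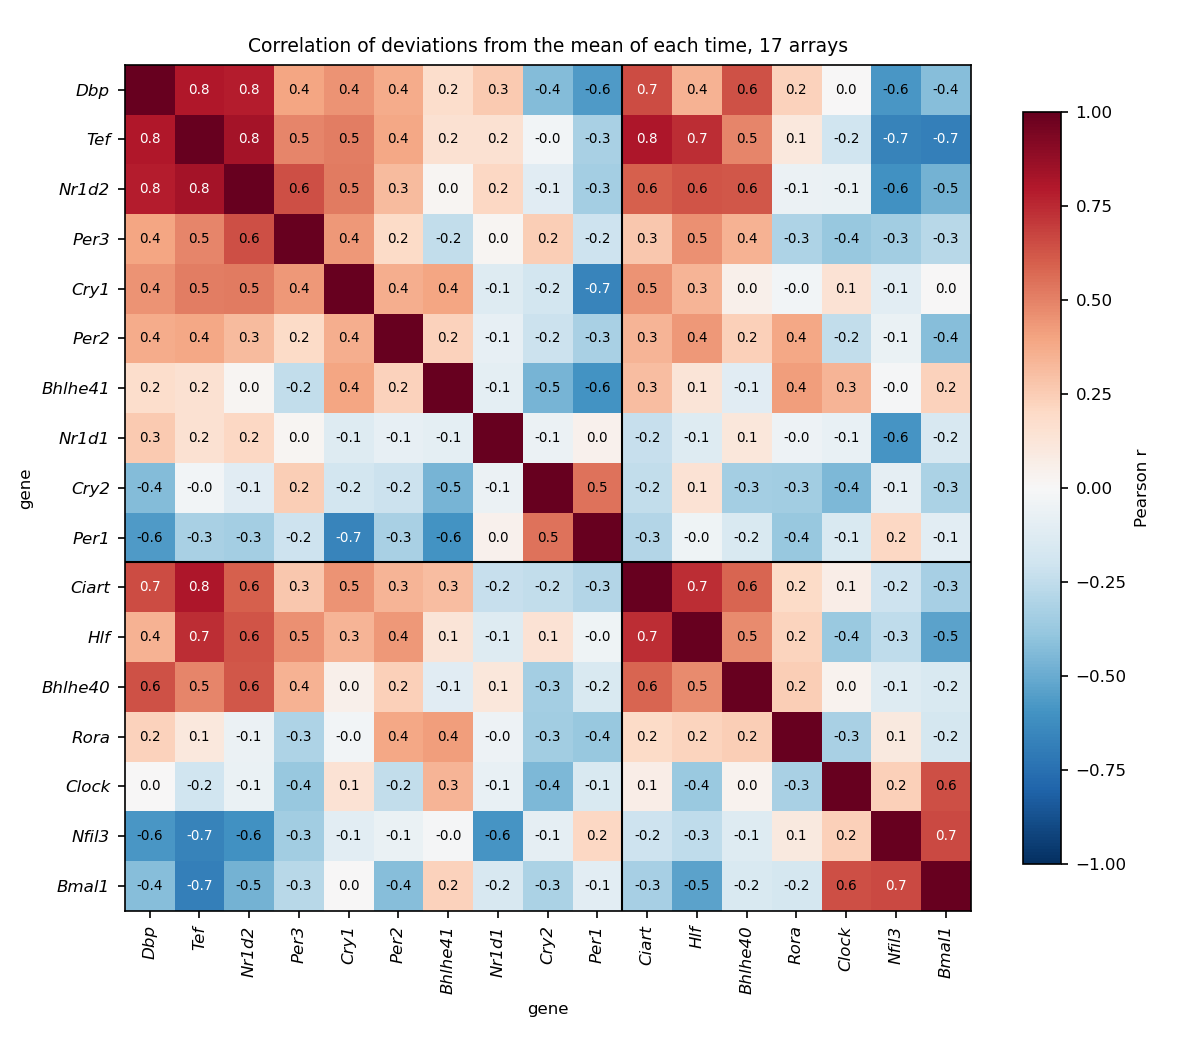
Pearson correlation between genes of their deviations from the mean of each time, over 17 arrays, for the 10 clock genes (above and left of the black lines) and 7 further clock genes. Red is positive and blue negative, and each cell prints its value. Dbp, Tef and Nr1d2 form a red block with Ciart. Hlf is red with Tef and Nr1d2 but paler with Dbp (0.35), and Tef is blue against Bmal1 and Nfil3.

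Markers of other cell types varied with some of the same genes. The mean of the acinar markers correlated with the deviations of Tef at 0.582, of Nr1d2 at 0.483 and of Dbp at 0.479. The mean of the macrophage markers, which spanned 5.09 to 5.52 at 0 h, 4.67 to 5.08 at 24 h and 5.16 to 5.47 at 48 h, correlated with Dbp at 0.572, Tef at 0.487, Cry1 at 0.486 and Per1 at -0.580. Bhlhe41, at background level, gave 0.679 with the macrophage mean and 0.740 with the fibroblast and mural cell mean. RNA quality was gauged from actin, by how far its 3' signal exceeded its 5' signal. This correlated with the 10 genes at -0.301 (Per1) to 0.423 (Cry1, the gene called higher at 24 h and 48 h). The part of any of these in the pattern was not tested.

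The spread of several of the clock genes narrowed with time in culture. From 0 h through 24 h to 48 h the SD of Nr1d2 went from 0.33 to 0.14 and 0.12, that of Dbp from 0.42 to 0.30 and 0.18, and that of Tef from 0.28 to 0.17 and 0.15. For Per3 it was 0.48, 0.40 and 0.24. The SD fell at both steps in 5 of the 10 genes, the fifth being Bhlhe41 at background level, where it did so in 15.1% of 11916 genes above the median level. Bhlhe41, with a mean of 3.50, is not among those 11916. Dbp, Tef, Nr1d2 and Per3 were all low on the 0 h arrays of batches 1 and 2, so the 5 falls are not separate observations. The median SD of the 10 genes was 0.28, 0.21 and 0.19, and over those 11916 genes it was 0.17, 0.19 and 0.18. The ratio of the SD at 0 h to that at 48 h stood at percentile 97.1 of those genes for Nr1d2, 94.6 for Dbp, 90.4 for Per3 and 88.5 for Tef, and at 46.3 for Cry2 and 32.9 for Nr1d1, whose SD was larger at 48 h than at 0 h. Of the 12 other clock genes 3 fell at both steps (Bmal1, Nfil3 and Timeless), and their median SD was 0.24, 0.25 and 0.23. Nfil3 went from 1.07 to 0.28 and 0.22, at percentile 99.6. The SDs rest on 5 or 6 arrays each and their differences were not tested.

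The mean of the 10 genes' standardised levels was lowest on the 0 h arrays of batch 1 (-0.88) and batch 2 (-0.79) and highest on the 24 h array of batch 4 (0.60). Among 11822 genes above the median level and outside all lists, the 5 whose levels followed this mean most closely over the 17 arrays were Fhl1 (r = 0.843), Mreg (0.803), Ogfod1 (0.800), Msl3l2 (0.798) and Herpud1 (0.788). Of these 5, 0 passed at 24 h or at 48 h against 0 h. The likeness was highest of that many genes and is a description.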

How the data were processed

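Expression in mouse islets was measured on single-colour Affymetrix mouse arrays, 1 per portion of islets. The values deposited by the authors are log2 levels per probe set made with RMA, according to the submitters' processing notes, which name no version. Their range, 1.55 to 13.81, is the basis for reading them as base 2. RMA corrects background, quantile-normalizes arrays and summarises probes, which compresses differences of weak signals, and no detection call accompanied the values. The number of arrays limits the precision.

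Of 45101 probe sets, 64 controls were left out. The platform annotation gave 34945 of the remaining 45037 a single symbol and 932 several, and did not list 9160. A gene was represented by its probe set of highest mean. The times were compared with limma 3.58.1 in R 4.3.3 (lmFit with 1 mean per time over all 17 arrays, then eBayes), with Benjamini-Hochberg adjustment over all 45037 probe sets and a threshold of 0.05. Errors of differences are limma's standard errors. The procedure was tested on simulated data.

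The genes and lists were chosen with earlier results of these data known. Named genes are the 10 clock genes, all genes of the 3 clock lists, up to 4 called genes of each output, kinase or cue list in each comparison, and the 5 genes closest to the mean of the 10. Usp2, Cirbp, Csnk1d, Fos, Egr1 and Nr4a1 fall outside this rule and were named after their values were seen. Some genes of the lists were not analysed here. Promoters, 250 bases before to 50 after each start, came from RefSeq (GRCm38.p6), and 9 of the 10 genes matched.

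Batches come from the study's design text, so arrays of 1 batch share an islet pool. Over the 16 pairs of arrays of 1 batch, the median correlation of deviations from the means of their times was 0.00545 (-0.159 to 0.274). The alternatives fitted batch as a block (fixed or random), dropped batch 5 or each single array, weighted arrays, changed the variance prior, centred medians, repeated quantile normalization, filtered on level, chose probe sets otherwise, or fitted only the times compared. Leaving out the 2 arrays least correlated with their time was added after seeing the data.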

Additional observations from a re-analysis of the deposited data

Results flagged for a closer look

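Among 66 groups of arrays (22 clock genes at 3 times), 5 had 1 array far from the others, where chance gives about 1 in 20. Per3 read 6.19 on the 48 h array of batch 5, against 6.62 to 6.86 on the others of that time. Dbp read 9.32 on the 24 h array of batch 5, against 9.92 to 10.14, and that array also correlated least with the other 24 h arrays over all probe sets. Clock read 8.31 on the 48 h array of batch 6, against 8.59 to 8.76. The other 2 concern signals under the median of the table. Npas2 read 2.77 on the 0 h array of batch 6, against 2.65 to 2.69, and Rorb read 3.08 on the 48 h array of batch 5, against 2.57 to 2.71.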

How the results depend on the processing

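The count of clock genes called at 24 h against 0 h was 1 (Cry1). It was 2 with the replicate block, which pairs portions of 1 islet pool, and 2 without batch 5 (Cry1 and Cry2 in both), and 3 without the 2 arrays of lowest correlation (Dbp, Cry1 and Cry2). When each array was left out in turn the count was 1 in every case at 24 h, 1 at 48 h and 0 between 48 h and 24 h. Of 897 values for the 10 genes over all alternatives, 893 kept their side of the threshold and 4 newly passed it, 3 for Cry2 and 1 for Dbp. The block changed no other call among the 10 genes, and as a random block it changed none. The median correlation between the 10 genes within a time, 0.151, ranged from 0.0611 to 0.186 when each array was left out and from 0.0607 to 0.199 over all alternatives. Among called values, Marveld1 alone changed sign, to 0.0161 at 24 h against 0 h once _x_at and _s_at probe sets were left out, which leaves another probe set to stand for it. Of 927 values for the other named genes, single arrays left out aside, 899 kept their side of the threshold, 14 lost a call and 13 gained one; the cause was not tested. Signals of Cry1 and Bhlhe41 close to background, and 5 or 6 arrays per time, limit what can be said of small differences, and the harvest times give no view of a rhythm.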
